A study of Capra hircus with 4 samples.

Results

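EMB encodes embigin, and the data described here are its 9 assembled transcripts and the long non-coding RNA (lncRNA) transcripts around the gene in goat endometrium, the inner lining of the uterus. EMB was taken by symbol from the authors' deposited table of predicted cis targets, where it is 1 of 387 genes, and its 9 transcripts are among 880 target transcripts. Every lncRNA whose deposited locus came within 100 kb of the EMB locus was added, which gave 26 of the 226416 lncRNA transcripts in the series. EMB was chosen by the deposited direction and p of its transcripts and by the deposited changes of the lncRNAs beside it, so these values are given as a description, with no test.

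Embigin is a transmembrane glycoprotein of the immunoglobulin superfamily and a relative of basigin and neuroplastin. In rodents it serves as an accessory subunit that brings monocarboxylate transporters, the carriers of lactate and pyruvate, to the plasma membrane, and it has been linked to integrin-dependent cell adhesion. LncRNAs are transcripts without an evident protein-coding frame, and those near a gene are often examined as candidate regulators of that gene in cis.

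The endometrium came from multiparous Xinong Saanen dairy goats of 24 months, mated naturally after oestrus synchronization and euthanized under barbiturate. The pre-receptive group was taken at gestational day 5 and the receptive group at gestational day 15, with 2 libraries each, from 20 goats in all and 10 per stage. The labels do not say whether a library holds 1 goat or several. The authors' table compares a set T with a set C, and the labels do not tie either letter to a stage, so every direction is given as T against C, whichever stage each may be. In such bulk tissue, fewer cells of a type and less RNA per cell cannot be told apart. The columns used hold no expression levels, so the tissue could not be checked against its marker genes, and the depth of the libraries is unknown.

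EMB (gene 102173505) was listed on chromosome 20 at 28592807 to 28639458, a span of 46652 bp, in a genome build not given in the sources used here. All 9 EMB transcripts carried this same position, and so did 1 lncRNA, TCONS_00223322. A deposited position is therefore that of a whole assembled locus and not of a single transcript. Of the 387 target genes, 107 (27.6%) shared their position with a lncRNA in this way. In RefSeq's gene order for the ARS1.2 assembly, the protein-coding neighbour of EMB on one side was PARP8, which encodes a member of the poly(ADP-ribose) polymerase family, and PARP8 was not a predicted target.

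The 26 lncRNA transcripts lay at 23 distinct positions, 12 below the EMB locus, 13 above it and 1 at the locus itself. All 26 were of the intergenic class, code u of the Cufflinks programs, against 98.3% of all lncRNAs. On chromosome 20, identifiers rise with position, then start over, which splits the lncRNAs into series. The files give no strand, and what the series stand for was not tested. The 9 EMB transcripts and 10 of the 26 lncRNAs belonged to the first series, and the other 16 lncRNAs to the second. At 3 positions a lncRNA of the first series had a partner of the second series with the same coordinates.

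**Figure D1:**
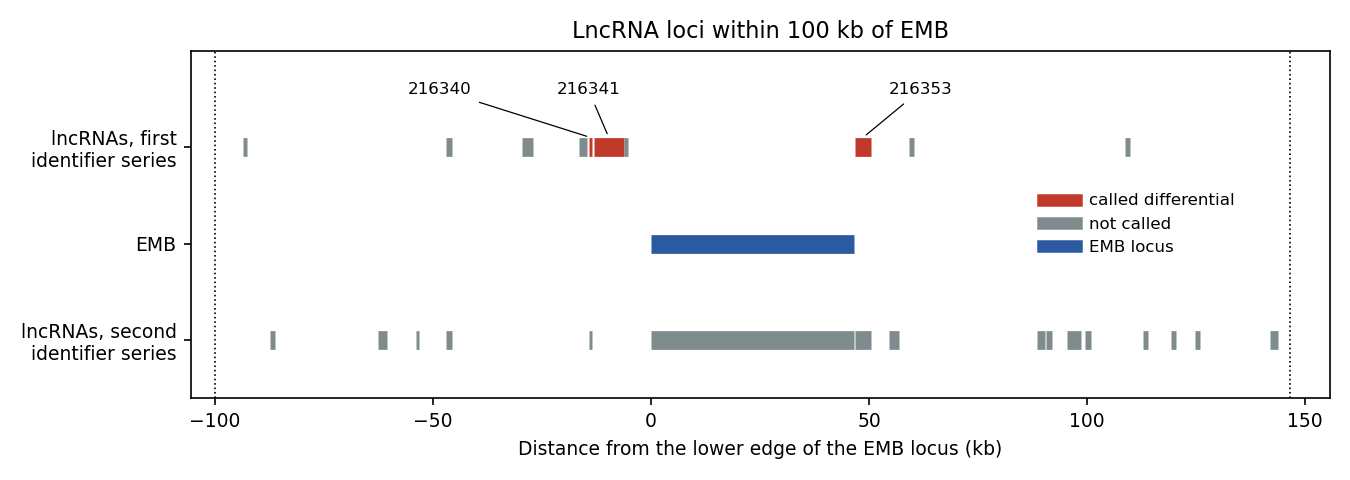
Map of the EMB locus (blue) and the lncRNA loci within 100 kb of it, by distance in kb from the lower edge of EMB; bars show the deposited span of each locus, dotted lines the window, and numbers the last digits of an identifier. The 3 called lncRNAs (red) flank EMB and all lie in the first identifier series, which holds 10 of the 26 lncRNAs. Over chromosome 20, 11 of 3391 lncRNAs of the first series were called (0.324%) and 9 of 3548 of the second (0.254%). The split of calls between the series around EMB was not tested.

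Of the lncRNAs around EMB, 3 were called, meaning that the authors' deposited table lists them as differential, and all 3 were higher in T. That is 3 of 26, or 11.5%, beside 0.295% called among all 226416 lncRNAs in either direction and 0.177% called higher. Nothing is read from this contrast, because EMB was chosen for it and the authors' number of tested transcripts is not given. The calls were TCONS_00216340, TCONS_00216341 and TCONS_00216353. The first 2 lay below EMB, and the third lay above it. Their changes are the authors' log2 ratio of T over C, 1 value per lncRNA without an error.

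TCONS_00216353, at 28639597 to 28643295, began 139 bp from the edge of the EMB locus. It was 14.4-fold higher in T (log2 change 3.84, p = 5e-05 and q = 0.0365 from the authors' deposited table). Its p was the smallest of the 668 calls, shared by 12 of them. Of the 12 calls with a q under 0.05, 0.0053% of all lncRNAs, 3 were above 0 in both sets, and of these only TCONS_00216353 was higher in T.

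TCONS_00216341, at 28579661 to 28586662, ended 6145 bp below EMB. It was 6.501-fold higher in T (log2 change 2.70, p = 9e-04 and q = 0.242 from the authors' deposited table). TCONS_00216340, at 28578578 to 28579412, ended 13395 bp below EMB. It was 6.23-fold higher in T (log2 change 2.64, p = 0.0128 and q = 0.551 from the authors' deposited table). Neither of these 2 lncRNAs passed a q of 0.05. Their changes were close to each other. That of TCONS_00216353 was larger by 1.14 and 1.20 on the log2 scale, a difference that was not tested.

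The calls around EMB belonged to the less frequent kind among the higher calls, those above 0 in both sets. Of the 401 calls higher in T, 354 were listed at 0 in C, and the 3 around EMB were among the other 47. Among those 47, whose log2 changes had a median of 3.01 and a range of 0.20 to 15.3 in the authors' deposited table, TCONS_00216353 held rank 10, and TCONS_00216341 and TCONS_00216340 held ranks 32 and 33. The lncRNA next to EMB was thus above the median of this class and the 2 on the other side were below it. On chromosome 20, 12 of 16 higher calls were listed at 0 in C, and 3 of the remaining 4 were those beside EMB.

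**Figure D2:**
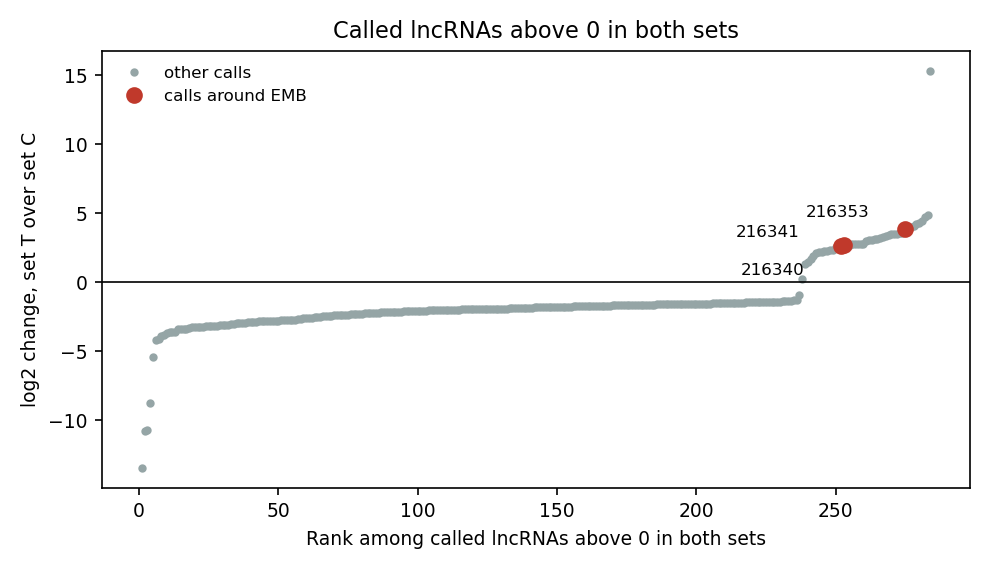
Log2 change of set T over set C (vertical) by rank (horizontal) for the 284 called lncRNAs above 0 in both sets, 1 point per lncRNA without error. Of the 3 calls around EMB (red), TCONS_00216353 stands at 3.84 and the other 2 at 2.70 and 2.64, among the 47 points above the line at 0.

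Below EMB the loci formed a close chain. TCONS_00216339 at 28576285 to 28578136, which was not called, stood 442 bp from TCONS_00216340. The next gaps were 249 bp to TCONS_00216341 and 65 bp to TCONS_00216342, which was not called and ended 5194 bp from EMB. The 2 inner loci of this chain were called and the 2 outer ones were not, and all 4 lncRNAs named in it belonged to the first series. Over the whole window the median gap between neighbouring loci was 4846.5 bp, and 6 of 22 gaps were at most 1 kb.

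The partners that share a position with a called lncRNA were not called. TCONS_00223323 has the coordinates of TCONS_00216353, and TCONS_00223320 those of TCONS_00216340. In each pair the call was thus listed for the first-series transcript alone. Among all 668 calls, 165 (24.7%) shared their position with a lncRNA that was not called. The other lncRNAs nearest to EMB, TCONS_00223324 at 7896 bp and TCONS_00216355 at 12555 bp above it, were not called either.

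EMB was paired with 2 of these lncRNAs in the table of predicted cis targets, TCONS_00216340 and TCONS_00216341, each with all 9 EMB transcripts, in 18 pairs. TCONS_00216353, the closest of the 3 and the one of largest change, was not paired with EMB or any other gene. Pairs with a lncRNA at higher positions than the gene did occur, in 153 of 446 pairs of a lncRNA and a gene. Within 1 kb of a target gene, without overlap, 42 of 49 combinations of a call and a gene were paired and 7 were not. TCONS_00216353 beside EMB had the shortest gap of those 7. A gene is a target only if it has a paired call, so the share paired was partly fixed in advance. Both EMB pairs were filed in the distance class of 100 kb, and the gap of TCONS_00216341 was 6145 bp. In all, 54 pairs of that class had a gap under 10 kb. These gaps run between the edges of whole loci, and the authors' class may be measured otherwise.

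All 9 EMB transcripts, TCONS_00216344 to TCONS_00216352, were listed higher in T. For TCONS_00216344 the authors' deposited table gave p = 0.0156, and it did not pass after Benjamini-Hochberg adjustment over the whole table of 816 transcripts that have a direction (adjusted p = 0.512). TCONS_00216347 had p = 0.102, TCONS_00216346 p = 0.425 and TCONS_00216345 p = 0.703 in the authors' deposited table. The other 5 were listed with a p of 1, a value the headers do not explain. The same value was listed for 549 of the 816 target transcripts (67.3%). One of 9 thus had a p under 0.05, beside 4.41% of the 816 target transcripts in either direction, 0.49% higher, and 0.98% after adjustment. The columns used here hold no fold or level of an EMB transcript, so the size of its change is unknown.

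EMB had many transcripts in the listing, all in 1 direction. Only 3 genes had more target transcripts than the 9 of EMB, and the median gene had 2. Of the 816 target transcripts with a direction, 31.7% were listed higher. Of 240 genes with at least 2 such transcripts, 142 (59.2%) had all of them in 1 direction, and 28 (11.7%) had all of them listed higher. Of the 6 genes with at least 9, EMB was the single one with all in 1 direction, and direction was among the values EMB was chosen by. For SREK1, OPA1, PDE4DIP, FAM193B and PCDH15 the directions were mixed, with 3 of 14, 4 of 13, 6 of 12, 4 of 9 and 8 of 9 listed higher. For these genes in the same order, 11, 10, 11, 7 and 9 transcripts had the unexplained p described above, against 5 for EMB. Most of the directions compared here thus rest on such entries. Transcripts of 1 gene share reads, so their directions are not independent.

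**Figure D3:**
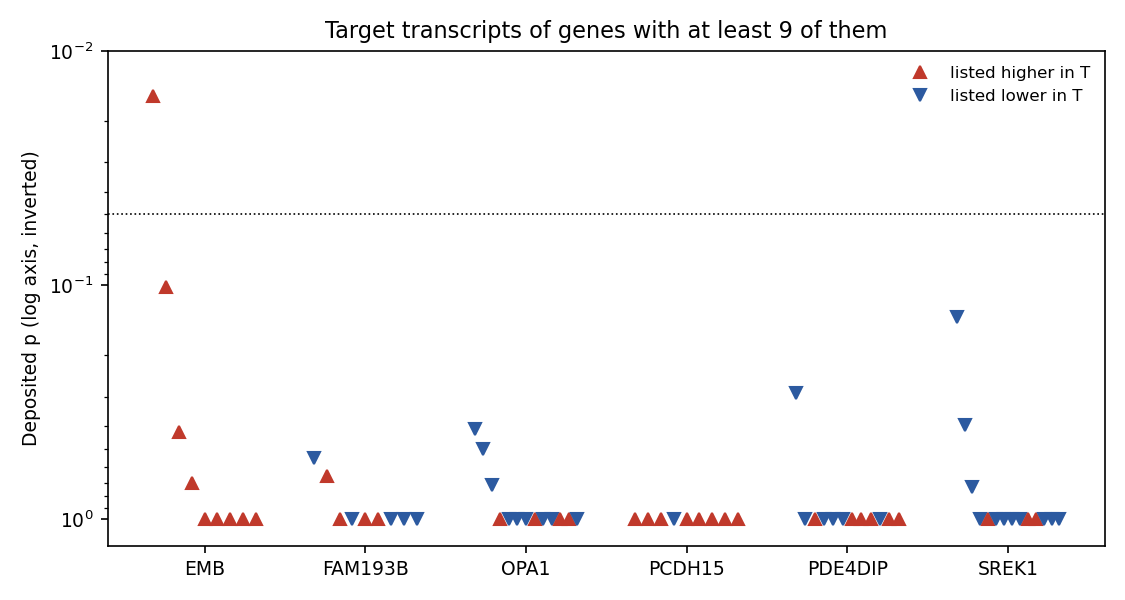
Deposited p (log axis, small values at the top, dotted line at 0.05) of each target transcript of the 6 genes with at least 9 of them, 1 triangle per transcript, pointing up if listed higher in T and down if lower. The 9 EMB transcripts all point up, and 1 of them, TCONS_00216344, is above the line.

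Among target genes, the loci most like EMB by number of higher calls nearby were those of CRIM1 and MME. The CRIM1 product tethers bone morphogenetic proteins at the cell surface, and MME is the membrane metallopeptidase neprilysin. The changes of nearby lncRNAs were among the values EMB was chosen by, and runs of calls away from target genes were not compared. Within 100 kb, CRIM1 and MME had 4 higher calls each, EMB had 3, and no other target gene had as many as 3. The 4 CRIM1 calls had log2 changes of 2.28 to 3.28 in the authors' deposited table, against 2.64 to 3.84 for EMB, and all 4 lay below the gene, at gaps of 2900 to 31988 bp. The 4 MME calls were listed at 0 in C and lay at gaps of 10859 to 88409 bp. EMB thus shared with CRIM1 calls that were above 0 in both sets. The gaps of the EMB calls, 139 to 13395 bp, reached closest to the gene. The target transcripts were listed higher for both of CRIM1, 3 of 4 of MME and 9 of 9 of EMB. The smallest p of a target transcript was 0.002 for CRIM1, 0.0156 for EMB and 0.235 for MME in the authors' deposited table. None of these passed Benjamini-Hochberg adjustment over the whole table (0.148, 0.512 and 1). Over entries with a p under 1 alone, the adjusted values were 0.0485, 0.168 and 0.522, and only that of CRIM1 was under 0.05. These entries were selected by their own p, and whether the entries left out were tested is unknown. The value of CRIM1 is therefore not taken as a call. The differences between the loci were not tested.

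**Figure D4:**
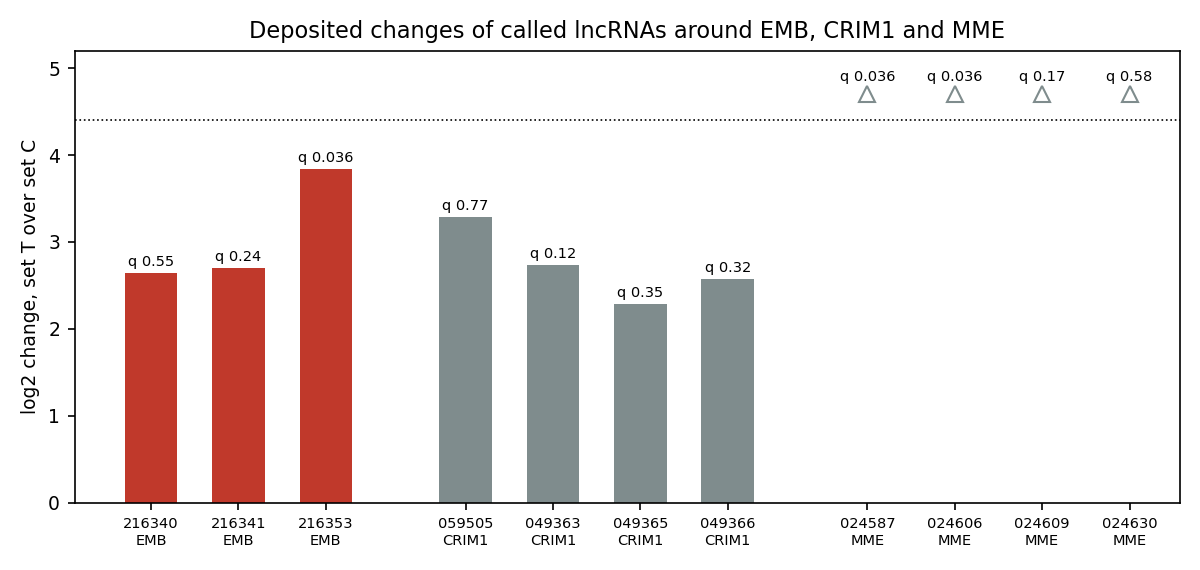
Log2 change of set T over set C (bars, vertical axis) of the 11 called lncRNAs within 100 kb of EMB (red), CRIM1 and MME (grey), in order of position, 1 value each without error and with the deposited q. Open triangles above the dotted line are MME calls listed at 0 in C, which have no finite change; the tallest bar is TCONS_00216353 beside EMB, at 3.84.

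The number of lncRNAs around EMB was not extreme. The window of EMB held 26 transcripts, rank 96 of 387 target genes, whose median was 20 and whose range was 5 to 54. Per 100 kb of window it held 10.5 transcripts, against a median of 7.99. Of the 20 calls on chromosome 20, the nearest to EMB outside the window were TCONS_00223258, 645777 bp below EMB, and TCONS_00217227, 9750820 bp above it, both listed at 0 in C. The outermost lncRNAs inside the window were TCONS_00216334, 92702 bp below EMB, and TCONS_00223339, 95322 bp above it, and the first outside were TCONS_00216333 at 106286 bp and TCONS_00216362 at 108545 bp.

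**Figure D5:**
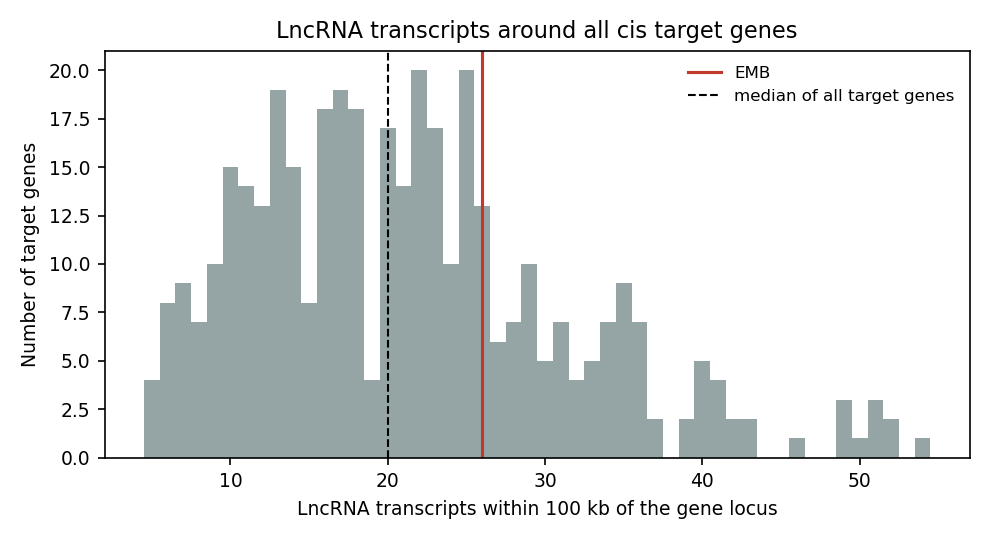
Number of target genes (vertical) by the number of lncRNA transcripts within 100 kb of the gene locus (horizontal), for all 387 predicted cis target genes. EMB (red line) has 26, above the median of 20 (dashed line) and well inside the range of 5 to 54.

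Coding potential was scored by CPC and CNCI, with negative scores on the non-coding side, and the table holds negative scores alone. The highest CPC score over all lncRNAs was -1, so scores just below it are at the upper end of the listed range. The 26 lncRNAs around EMB had a median CPC score of -1.12 and a median CNCI score of -0.0389, against -1.13 and -0.0328 over all lncRNAs. The called lncRNAs did not share a place in this range. TCONS_00216340 had a CPC score of -1.40, and 0.425% of all lncRNAs scored below it. TCONS_00216353 (-1.10) and TCONS_00216341 (-1.09) were near the middle, with 60.03% and 65.02% scoring below them. The highest CPC score of the window, -1.0015, belonged to TCONS_00223323, the partner of TCONS_00216353, followed by TCONS_00223330 at -1.01 and TCONS_00223328 at -1.03. The lowest scores of those not called were -1.31 for both TCONS_00223322 and TCONS_00216342 and -1.28 for TCONS_00223334.

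By span, TCONS_00216341 with 7002 bp and TCONS_00216353 with 3699 bp were long, as 94.98% and 91.1% of all lncRNA transcripts had a shorter listed span, and TCONS_00216340 with 835 bp was short, at 11.7%. The median span around EMB was 1366 bp, against 1425 bp over all lncRNAs. The lncRNAs of longest span that were not called were TCONS_00223322, listed with the whole EMB locus, TCONS_00223323, listed with the position of TCONS_00216353, and TCONS_00223330 with 3315 bp.

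Of the protein-coding genes in the RefSeq table, 1.41% were targets. A list of 22 genes of the embigin family and of lactate transport included basigin (BSG), neuroplastin (NPTN) and the SLC16A carriers. Of these 22, 19 were in that table and EMB was the only target. EMB had been taken from the targets beforehand, so its own place in this count was fixed in advance. Of 20 genes of glucose entry and glycolysis, all in the table, 2 were targets. The glucose transporter gene SLC2A1 lay beside TCONS_00345241 and the glycolytic enzyme gene ENO1 beside TCONS_00137257, and both lncRNAs were higher in T and listed at 0 in C (q = 0.191 and 0.483 in the authors' deposited table). The best p among the genes' own transcripts was 0.264 for ENO1, for a transcript listed lower, and 1 for SLC2A1 in the authors' deposited table. None of 21 adhesion genes, 20 of them in the table, was a target. These were receptors of the immunoglobulin and integrin families, with SPP1 added. Being a target needs a call nearby, so such counts are no measure of how these genes were expressed.

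The annotation of EMB in the tables was sparse. It carried 1 Gene Ontology term, integral to membrane, which EMB entered through its 2 paired lncRNAs. This term had p = 0.386 in the authors' deposited table, with 69 of 200 entries (34.5%) against 33.3% of the background entries, and 563 of 744 terms had a smaller p. EMB was listed in 0 of 146 KEGG pathways. The term covered 140 symbols in all.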

How the data were processed

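RNA was depleted of ribosomal RNA and sequenced from both ends in strand-specific libraries, per the labels' protocols. TopHat, TopHat2, Cufflinks and Cuffdiff are named in the submitters' processing notes, with no version or role. The CPC and CNCI score of each transcript, the log2 fold change of each call and its p-value and q-value are the authors' deposited values, per the file headers. The p-values of targets and GO terms, and the other numbers given per term, were also deposited by the authors.

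The 4 columns named for single libraries and 2 of set levels (6 in all) were not used: their names carry the letters T or C but match no sample label or labelled group. The planned limma fit was therefore not run, no error between libraries was computed, and depth is unknown.

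Gaps were computed between the nearer edges of deposited loci. Target p-values were adjusted by the Benjamini-Hochberg method over all 816 target transcripts with a direction, at 0.05. In a simulation of that size, 40 of 40 planted transcripts were recovered. They were planted with p-values far smaller than that of any EMB transcript, and the other p-values were drawn evenly. Recovery was thus settled by the setting, which checks the calculation and not its power for values such as those of EMB. EMB, the lists and the loci compared were chosen with earlier results of these data known. Named lncRNAs are all calls, the pairs of EMB, and of the others the 5 nearest, the 3 longest and the 3 of highest and of lowest CPC score. Alternatives changed the window, the joining of loci, the call rule and the adjustment. Python 3.11.15, numpy 2.4.6, pandas 2.3.3 and matplotlib 3.10.9 were used.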

Additional observations from a re-analysis of the deposited data

How the results depend on the processing

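The number of lncRNA transcripts around EMB was 16 with a window of 50 kb and 49 with 200 kb, against 26 with 100 kb. The number of calls stayed at 3 with both windows and was 1 when a q under 0.05 was required. The number of EMB transcripts with a p under 0.05 went from 1 to 0 when p-values were adjusted over the whole table, and to 0 when adjusted over entries with a p under 1, where the smallest was 0.168. The number of lncRNA transcripts was also 26 when the whole locus had to lie in the window. Smaller shifts came from each position counted once (23) and the lncRNA at the EMB locus left out (25), both chosen after seeing the data. Loci joined over gaps of 1 kb numbered 17 against 23, and the window ranked 90 with 50 kb and 112 per 100 kb, against 96. No paired analysis was possible because the columns named for single libraries match no sample label; leaving out single libraries was not run for the same reason.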
